A study of Mus musculus with 15 samples.

Results

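The genes described here form the sodium channel ENaC and its control by aldosterone, read in 3 zones of the mouse kidney. The 9 genes were taken by symbol from a table of 25030 genes, and each had 1 row. These genes were chosen with earlier results of these data known. They are the channel subunits Scnn1a, Scnn1b and Scnn1g, the mineralocorticoid receptor Nr3c2, the corticosterone-inactivating enzyme Hsd11b2, the kinase Sgk1, the ubiquitin ligase Nedd4l, the leucine zipper protein Tsc22d3 (GILZ) and the protease Prss8 (prostasin). Bulk RNA sequencing was done on total RNA from the microdissected inner medulla (IM), outer medulla (OM) and cortex. The kidneys came from male wild type mice, with the strain spelled C56BL/6N in the labels, and neither an age nor a treatment is given there. Each zone has 5 libraries, 15 in all, and the labels do not say whether these came from separate animals. The p-values below thus set differences between zones against the scatter of these libraries, and that scatter may be technical. In bulk tissue, fewer cells of a type and less RNA per cell cannot be told apart.

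ENaC is the channel in the apical membrane of the late distal convoluted tubule, the connecting tubule and the collecting duct through which sodium enters the cell. Aldosterone binds the mineralocorticoid receptor in these cells and raises transcription of genes such as Sgk1 and Tsc22d3. SGK1 phosphorylates the ligase NEDD4-2 (Nedd4l), which otherwise removes ENaC from the membrane, while proteases such as prostasin raise the channel's activity. HSD11B2 inactivates the glucocorticoids that would otherwise occupy the receptor. The response is best known from the distal nephron of the cortex, and the medullary collecting duct continues it towards the papilla.

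Levels are given in TPM (transcripts per 1000000), which are corrected for gene length, as the mean of 5 libraries ± SD. Differences between zones are differences of mean log2(TPM + 1) and carry a standard error (SE). On this scale the change of a gene with few transcripts comes out too small. They were tested with limma over 15052 genes and called at a Benjamini-Hochberg adjusted p under 0.05. The libraries held 16264486 to 25195553 reads assigned to genes, recovered from the steps of the TPM values. The 9 genes rested on 154 to 19554 reads in a library. Libraries of the same zone correlated at 0.974 to 0.993 over the tested genes, and libraries of different zones at 0.808 to 0.981. The median of all tested genes was not 0 on the TPM scale. It stood at 0.11 for OM minus cortex, 0.51 for IM minus OM and 0.65 for IM minus cortex (log2). Median-ratio scaling, which sets a typical gene to the same level in each library, brought these medians to -0.02, 0.02 and 0.03. A called direction that differs between the deposited TPM and this scaling is named beside its value.

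The marker lists differed by zone as follows. The 6 principal cell markers, a list that includes Hsd11b2 itself, summed to 8421 to 13495 TPM in IM, 904 to 1292 TPM in OM and 568 to 712 TPM in cortex. The 6 markers of the distal convoluted and connecting tubule summed to 102 to 172 TPM in IM, 917 to 2011 TPM in OM and 3388 to 4397 TPM in cortex. The 6 proximal tubule markers summed to 1602 to 1971 TPM in IM, 3952 to 5154 TPM in OM and 6694 to 7950 TPM in cortex. Aqp1, which thin limbs also express, made up 1086 ± 92.0 TPM of the IM sum. Slc34a1 of the same list averaged 516 ± 147 TPM in IM, 2826 ± 424 TPM in OM and 5175 ± 427 TPM in cortex. The IM libraries were not free of the thick ascending limb, a segment of the outer medulla and cortex. Its 6 markers summed to 2396 to 5278 TPM in IM, 2974 to 6298 TPM in OM and 1351 to 1811 TPM in cortex. On the TPM scale 0 of 6 were called higher and 1 lower in IM than in OM, where 66.4% and 17.2% of all genes were. After median-ratio scaling 0 were higher and 5 lower, where 37.9% and 36.5% of all genes were. Among these markers Slc12a1 averaged 958 ± 336 TPM in IM, 906 ± 176 TPM in OM and 157 ± 23.9 TPM in cortex. Aldosterone is made in the adrenal gland, and the adrenal cortex markers Cyp11b1, Cyp11b2 and Cyp21a1 were at 0 in all OM and cortex libraries. In IM the 6 adrenal cortex markers together reached 5.12 to 6.65 TPM, most of it Star at 4.69 ± 0.458 TPM.

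**Figure D1:**
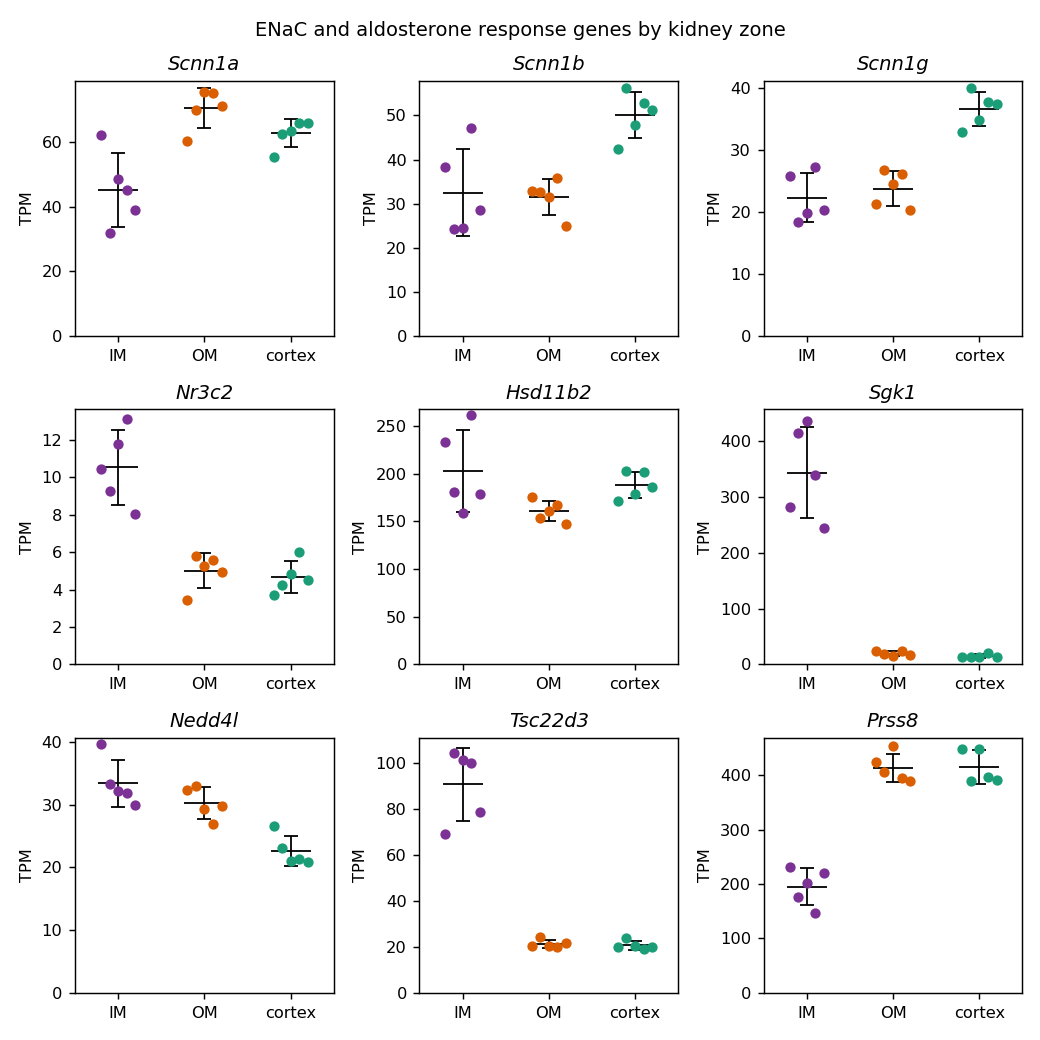
TPM of the 9 genes on linear axes from 0, with 1 point a library and bars at the mean ± SD of the 5 libraries each of IM, OM and cortex. Sgk1 and Tsc22d3 stand higher in all 5 IM libraries than in any other library, and Prss8 stands lower in all 5 IM libraries than in any other.

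In OM against cortex the data show fewer Scnn1b and Scnn1g transcripts and slightly more Nedd4l transcripts. Of the 9 genes, 1 was called higher and 2 lower, and 6 did not pass the test. Of all 15052 genes tested, 28.3% were called higher and 6.30% lower in this comparison. The median difference of the 9 genes was 0.05 (log2), beside 0.11 for all tested genes. After median-ratio scaling 1 was called higher and 3 lower, where 16.5% and 17.0% of all genes were. For 3 of the 9 genes every OM library lay on the same side of all cortex libraries, against 28.7% of all genes.

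In IM against OM the changes were larger, with Sgk1 and Tsc22d3 far higher in IM and Prss8 lower. Of the 9 genes, 4 were called higher and 2 lower, where 66.4% and 17.2% of all genes were. The median difference of the 9 was 0.13 (log2), beside 0.51 for all tested genes. After scaling the same counts were 3 higher and 5 lower, where 37.9% and 36.5% of all genes were. The libraries did not overlap for 4 of the 9 genes, against 71.4% of all genes. IM against cortex gave 4 higher and 4 lower, where 70.2% and 16.0% of all genes were, and after scaling 3 higher and 5 lower, where 40.1% and 38.5% were. The median difference of the 9 was then 0.09 (log2), beside 0.65 for all tested genes, and 6 of the 9 did not overlap, against 77.5% of all genes. The 3 comparisons share libraries, so their values are set side by side and not correlated.

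**Figure D2:**
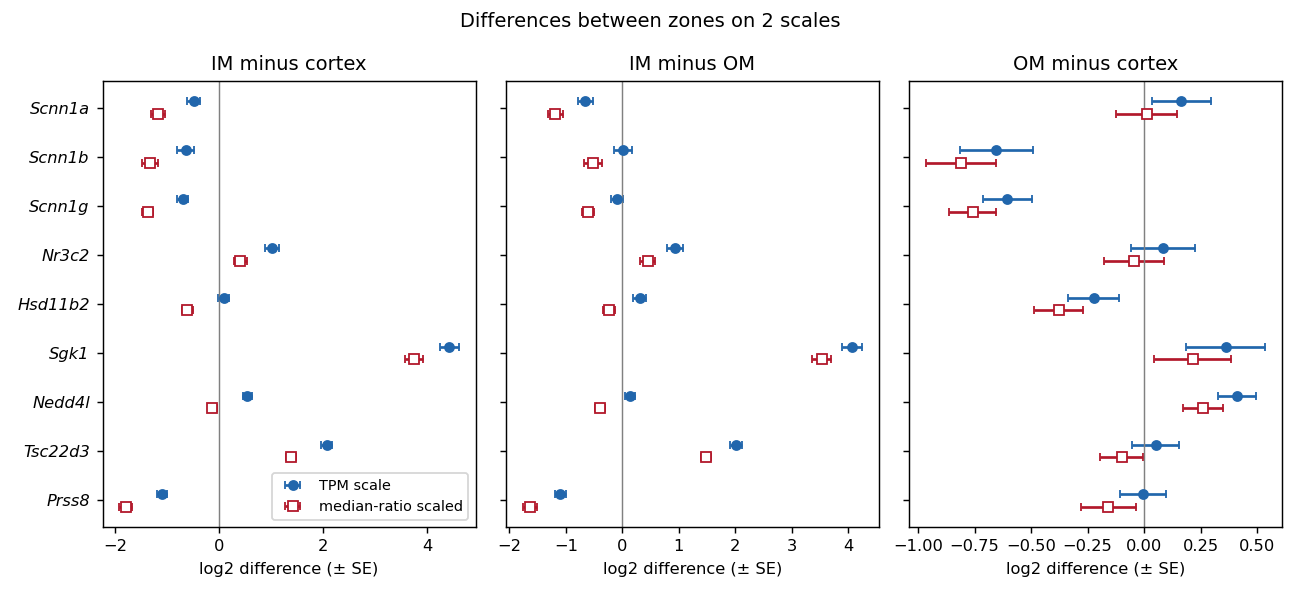
Differences in log2(TPM + 1) of the 9 genes for IM minus cortex, IM minus OM and OM minus cortex, with bars for ± 1 SE, on the TPM scale and after median-ratio scaling. The panels have different horizontal ranges. Sgk1 reaches 4.07 for IM minus OM, while Scnn1b, Hsd11b2 and Nedd4l stand at or above 0 on the TPM scale for IM minus OM and below 0 after scaling.

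Scnn1a encodes the alpha subunit, which the channel needs to conduct. It measured 62.1, 31.7, 48.4, 45.0 and 38.8 TPM in IM libraries 1 to 5. It measured 60.1, 69.9, 75.4, 75.1 and 71.1 TPM in OM and 55.4, 62.3, 63.4, 65.9 and 65.9 TPM in cortex. IM library 1 fell within the range of the other zones, and IM libraries 2 to 5 lay below all OM and cortex libraries. The thick ascending limb sums of IM libraries 1 to 5 were 5262, 2396, 5278, 4351 and 2979 TPM, so libraries 2 and 5 were lowest in both. OM library 1 was also lowest in both among the OM libraries, with a sum of 2974 TPM. The part of this segment in the level of Scnn1a was not tested. Scnn1a fell in IM against OM by 0.66 ± 0.13 (log2, SE; limma, adjusted p = 0.000231) and against cortex by 0.49 ± 0.13 (adjusted p = 0.00235). OM averaged 70.3 ± 6.20 TPM and cortex 62.6 ± 4.34 TPM, and their difference of 0.16 ± 0.13 (log2) did not pass the test (limma, adjusted p = 0.358).

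Scnn1b and Scnn1g encode the beta and gamma subunits, which are assembled with alpha into the full channel. Scnn1b measured 38.2, 24.2, 24.4, 47.1 and 28.6 TPM in IM libraries 1 to 5, 32.8, 32.6, 31.5, 35.7 and 24.9 TPM in OM, and 42.3, 56.1, 47.8, 52.8 and 51.3 TPM in cortex. All OM libraries lay below all cortex libraries, and the IM libraries overlapped both. Scnn1g measured 25.8, 18.3, 19.9, 27.3 and 20.3 TPM in IM, 21.3, 26.7, 24.5, 26.1 and 20.3 TPM in OM, and 32.9, 40.0, 34.9, 37.7 and 37.3 TPM in cortex. For Scnn1g the medullary libraries of both zones lay below all cortex libraries. In OM against cortex Scnn1b fell by 0.65 ± 0.16 (limma, adjusted p = 0.0055) and Scnn1g by 0.61 ± 0.11 (adjusted p = 0.000457), both on the log2 scale. Scnn1b averaged 31.5 ± 4.03 TPM in OM against 50.1 ± 5.28 TPM in cortex, and Scnn1g 23.8 ± 2.87 TPM in OM against 36.6 ± 2.76 TPM in cortex.

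Between IM and OM these subunits were nearly level on the TPM scale, and the answer depended on the scaling. Scnn1b averaged 32.5 ± 9.94 TPM in IM and 31.5 ± 4.03 TPM in OM, a log2 difference of 0.01 ± 0.16 (limma, adjusted p = 0.973) that turned to -0.52 after median-ratio scaling (adjusted p = 0.00707). Scnn1g averaged 22.3 ± 3.98 TPM in IM and 23.8 ± 2.87 TPM in OM, a log2 difference of -0.10 ± 0.11 (limma, adjusted p = 0.415), and of -0.61 after scaling (adjusted p = 6.9e-05). Against cortex, IM had less of both subunits on either scale. Scnn1b fell by 0.65 ± 0.16 (log2; limma, adjusted p = 0.00147) and Scnn1g by 0.70 ± 0.11 (adjusted p = 1.39e-05). The distal convoluted and connecting tubule, which also carries ENaC, lost markers in the same comparisons. All 6 of its markers were called lower in OM than in cortex and all 6 lower in IM than in OM, with the sums given above. Of all genes 6.30% and 17.2% were called lower in these comparisons. The part of these cells in the subunit differences was not tested.

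The makeup of the channel transcripts was read from ratios of (TPM + 1) within a library, which depend little on the scaling. A ratio of TPM itself cancels the library's total exactly, and the same 26 of 36 tests passed without the added 1, an alternative chosen after seeing the data. The geometric mean of Scnn1a over Scnn1b, both as TPM + 1, was 1.39 in IM, 2.20 in OM and 1.25 in cortex. Scnn1a over Scnn1g was 1.96 in IM, 2.89 in OM and 1.69 in cortex. OM thus had the most alpha transcript relative to its partners, and its 5 libraries overlapped those of cortex in neither ratio. Scnn1a over Scnn1b was higher in OM than in cortex by 0.82 (log2 ratio; two-sided exact permutation test, adjusted p = 0.0119). For Scnn1a over Scnn1g that difference was 0.77 (exact test, adjusted p = 0.0119). In IM against OM the ratios fell by 0.66 (exact test, adjusted p = 0.022) and 0.56 (adjusted p = 0.0119). IM and cortex did not differ past the threshold, at 0.16 for Scnn1a over Scnn1b (exact test, adjusted p = 0.473) and 0.21 for Scnn1a over Scnn1g (adjusted p = 0.197).

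Scnn1b over Scnn1g moved much less. Its geometric mean on TPM + 1 was 1.41 in IM, 1.31 in OM and 1.36 in cortex. The log2 differences were -0.05 for OM minus cortex (exact permutation test, adjusted p = 0.476), 0.10 for IM minus OM (adjusted p = 0.415) and 0.05 for IM minus cortex (adjusted p = 0.588). Leaving out OM library 1 brought OM minus cortex to -0.10 (exact test, adjusted p = 0.0408). In all, 12 ratios were tested in 3 comparisons, with adjustment over the 36 tests. With 5 libraries against 5 the smallest unadjusted p is 0.00794. Of the 12 ratios, 8 were called in OM against cortex, 10 in IM against OM and 8 in IM against cortex, and many of these share a gene.

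**Figure D3:**
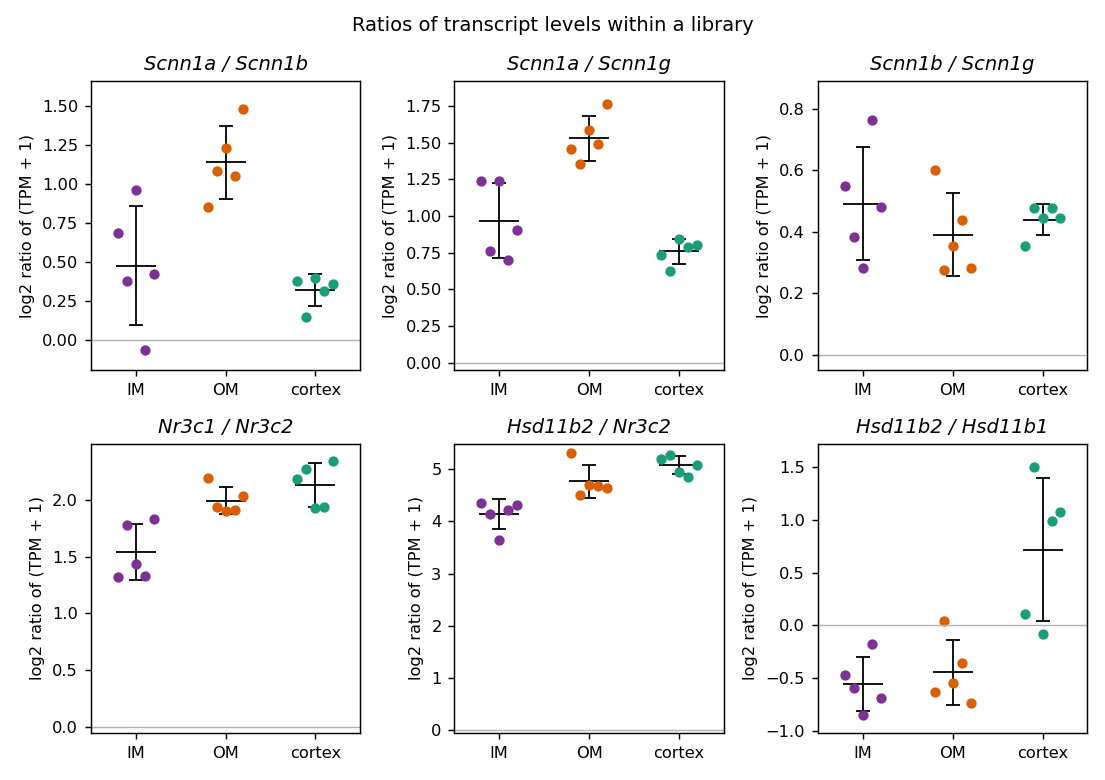
Log2 ratios of (TPM + 1) between pairs of genes in each library, with IM, OM and cortex from left to right and bars at the mean ± SD of 5 libraries. Scnn1a over Scnn1b stands highest in OM, Scnn1b over Scnn1g overlaps in all zones, and Hsd11b2 over Nr3c2 is lowest in IM.

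Set against Aqp2, the apical water channel of principal cells, every ENaC subunit had a lower ratio the deeper the zone. Aqp2, the denominator, itself rose inward. On the TPM scale Scnn1a was not called different between OM and cortex. Neither were Scnn1b and Scnn1g between IM and OM. Aqp2 averaged 7744 ± 1685 TPM in IM, 465 ± 66.8 TPM in OM and 233 ± 38.2 TPM in cortex. The mean log2 ratio of Scnn1a to Aqp2, on TPM + 1, was -7.40 in IM, -2.70 in OM and -1.87 in cortex. For Scnn1b it was -7.87 in IM, -3.84 in OM and -2.19 in cortex, and for Scnn1g -8.36 in IM, -4.23 in OM and -2.63 in cortex. In each of these ratios every zone kept to a range of its own. All 9 differences reached the smallest p the design allows (exact permutation test, adjusted p = 0.0119). These 3 ratios share the denominator Aqp2 and are not independent of each other.

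Nr3c2 encodes the mineralocorticoid receptor. It measured 10.4, 9.30, 11.8, 13.1 and 8.02 TPM in IM libraries 1 to 5, 3.47, 5.82, 5.26, 5.60 and 4.96 TPM in OM, and 3.72, 4.27, 4.85, 5.99 and 4.50 TPM in cortex. Every IM library lay above every library of the other zones, which overlapped each other. Nr3c2 rose in IM against OM by 0.94 ± 0.14 (log2; limma, adjusted p = 1.28e-05) and against cortex by 1.02 ± 0.14 (adjusted p = 4.27e-06). After median-ratio scaling these differences were 0.45 (adjusted p = 0.00573) and 0.41 (adjusted p = 0.0103). Under quantile normalization they were 0.28 (adjusted p = 0.0734) and 0.12 (adjusted p = 0.436) and did not pass the test. OM and cortex differed by 0.08 ± 0.14 (log2; limma, adjusted p = 0.679). Exons of Nr3c2 overlap Gm10649 on the opposite strand, and without a known strand setting the reads of the pair cannot be told apart.

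The glucocorticoid receptor Nr3c1 was the more abundant of the 2 receptors in all zones. It averaged 32.2 ± 2.96 TPM in IM, 22.8 ± 2.14 TPM in OM and 23.7 ± 2.80 TPM in cortex. The geometric mean of Nr3c1 over Nr3c2, as a ratio of TPM, was 3.09 in IM, 4.59 in OM and 5.12 in cortex. Taken on TPM + 1, this ratio was lower in IM than in OM by -0.46 on the log2 scale (exact permutation test, adjusted p = 0.0119) and lower in IM than in cortex by -0.59 (adjusted p = 0.0119). OM and cortex differed by -0.14 (exact test, adjusted p = 0.238). The level of Nr3c1 itself was called higher in IM than in OM by 0.48 (log2; limma, adjusted p = 0.000105), but this turned to -0.0446 after scaling.

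Hsd11b2 guards the receptor by turning active glucocorticoid into its inactive 11-keto form. It measured 233.8, 181.3, 158.4, 261.7 and 179.1 TPM in IM libraries 1 to 5, 175.2, 154.1, 161.5, 167.0 and 147.1 TPM in OM, and 171.1, 203.4, 179.2, 201.7 and 185.7 TPM in cortex. The zones overlapped throughout, and IM libraries 1 and 4 were the highest of all. The difference for IM minus OM was 0.31 ± 0.11 (log2; limma, adjusted p = 0.0179), which turned to -0.23 after scaling (adjusted p = 0.0639) and did not pass the test without IM library 1 (0.25, adjusted p = 0.0521). For IM minus cortex it was 0.09 ± 0.11 (limma, adjusted p = 0.478) and turned to -0.61 after scaling (adjusted p = 9e-05). The direction of Hsd11b2 in IM is therefore set by the scaling. OM averaged 161 ± 10.97 TPM and cortex 188 ± 14.0 TPM, a difference of -0.22 ± 0.11 (log2; limma, adjusted p = 0.137) that was -0.38 after scaling (adjusted p = 0.014). Relative to Nr3c2, within a library, the enzyme was lower in IM than in either other zone. The geometric mean of Hsd11b2 over Nr3c2, as a ratio of TPM, was 19.2 in IM, 32.5 in OM and 40.7 in cortex. Taken on TPM + 1, its log2 differences were -0.63 for IM minus OM, -0.93 for IM minus cortex (exact permutation test, adjusted p = 0.0119 each) and -0.31 for OM minus cortex (adjusted p = 0.122), the last at -0.44 (adjusted p = 0.022) without OM library 1.

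Sgk1 encodes the serum- and glucocorticoid-regulated kinase, which is also induced by a rise in tonicity. It measured 283, 416, 436, 340 and 245 TPM in IM libraries 1 to 5. It measured 23.3, 18.2, 15.4, 23.7 and 16.1 TPM in OM, and 13.3, 14.0, 13.1, 20.6 and 13.1 TPM in cortex. The lowest IM library was far above the highest library of any other zone. IM averaged 344 ± 82.3 TPM against 19.3 ± 3.94 TPM in OM, a 17.8-fold higher mean, and against 14.8 ± 3.24 TPM in cortex, 23.2-fold higher. The log2 difference was 4.07 ± 0.18 for IM minus OM (limma, adjusted p = 3.51e-11) and 4.43 ± 0.18 for IM minus cortex (adjusted p = 5.75e-12), and 3.53 and 3.75 after scaling. By size of the increase Sgk1 stood at place 52 of 15052 genes in IM against OM and at place 92 in IM against cortex. OM exceeded cortex by 0.36 ± 0.18 (log2; limma, adjusted p = 0.13), which passed the test without cortex library 4, at 0.48 (adjusted p = 0.0439).

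Tsc22d3 encodes GILZ, a corticosteroid-induced protein reported to promote ENaC activity together with SGK1. It measured 68.8, 104.2, 101.3, 99.7 and 78.7 TPM in IM libraries 1 to 5, 20.4, 24.3, 20.4, 19.8 and 21.9 TPM in OM, and 19.8, 23.7, 20.5, 19.1 and 19.96 TPM in cortex. All IM libraries lay above all others, and OM and cortex covered the same range. Tsc22d3 rose in IM against OM by 2.02 ± 0.10 (log2; limma, adjusted p = 8.44e-11), a 4.24-fold higher mean, and in IM against cortex by 2.07 ± 0.10 (adjusted p = 2.93e-11). OM minus cortex was 0.05 ± 0.10 (limma, adjusted p = 0.746).

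A promoter window each of Sgk1 and Tsc22d3 is shown, since these genes moved together into IM and both are known targets of corticosteroid receptors. Each window was picked from those of its gene because it held a match to a motif given below. The windows run from 250 bases before to 50 bases after the annotated start, from RefSeq on GRCm38.p6. Capitals mark matches, on either strand, to the hexamer TGTTCT, the core that a single receptor molecule recognises. In the Sgk1 window they also cover the 3 free bases of the palindrome given below.
Sgk1, chr10:21993640-21993939, plus strand: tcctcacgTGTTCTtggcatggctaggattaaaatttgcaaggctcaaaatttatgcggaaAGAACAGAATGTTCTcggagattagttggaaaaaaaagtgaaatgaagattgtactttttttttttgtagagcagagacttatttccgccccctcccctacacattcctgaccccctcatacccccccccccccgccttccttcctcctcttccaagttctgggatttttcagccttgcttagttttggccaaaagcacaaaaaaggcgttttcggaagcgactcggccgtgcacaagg
Tsc22d3, chrX:140600473-140600772, minus strand: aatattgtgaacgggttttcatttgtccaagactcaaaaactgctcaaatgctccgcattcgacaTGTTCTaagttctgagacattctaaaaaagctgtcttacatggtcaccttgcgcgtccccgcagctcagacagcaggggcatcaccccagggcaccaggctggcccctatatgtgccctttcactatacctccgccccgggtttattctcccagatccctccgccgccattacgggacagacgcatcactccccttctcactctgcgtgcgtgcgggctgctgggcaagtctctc
The Sgk1 window holds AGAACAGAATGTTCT, a match to the palindrome of the corticosteroid response element, searched as the hexamer and its reverse complement with 3 free bases between them. It lies 189 to 175 bases before the start, and a further hexamer lies 242 to 237 bases before it. The palindrome was found in 3 of all 32851 promoter windows (0.00913%), those of Sgk1, Acnat2 and Gm35041. The Tsc22d3 window holds a hexamer 185 to 180 bases before its start and no palindrome. The hexamer alone is common, in 6233 of 32851 windows (19.0%). It was found in 4 of the 12 windows that match 5 of the 9 genes, and in 0 of the 12 windows of the corticosteroid-responsive genes described below. A match is a string of letters and not evidence of binding. Sgk1 has 6 annotated windows and Tsc22d3 has 3. The printed window was picked for its match, which for Sgk1 was the palindrome. Other Sgk1 windows, starting at chr10:21881934 and chr10:21991973, held the hexamer without the palindrome. The expression table has 1 row for each gene, so levels cannot be assigned to a start site.

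Nedd4l encodes NEDD4-2, the ligase that SGK1 restrains. It measured 39.6, 33.3, 32.2, 31.8 and 30.0 TPM in IM libraries 1 to 5, 32.3, 33.0, 29.3, 26.8 and 29.8 TPM in OM, and 26.6, 23.1, 21.1, 21.3 and 20.9 TPM in cortex. All OM and IM libraries lay above all cortex libraries. OM exceeded cortex by 0.41 ± 0.08 (log2; limma, adjusted p = 0.00139), and by 0.26 after scaling (adjusted p = 0.0366). IM exceeded cortex by 0.54 ± 0.08 (limma, adjusted p = 1.48e-05), but this turned to -0.13 after scaling (adjusted p = 0.19). IM minus OM was 0.13 ± 0.08 (limma, adjusted p = 0.146) and turned to -0.39 after scaling (adjusted p = 0.00102).

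Sgk1 therefore passed its target ligase in IM alone of the 3 zones. The geometric mean of Sgk1 over Nedd4l, both as TPM + 1, was 9.85 in IM, 0.642 in OM and 0.664 in cortex. The log2 ratio was higher in IM than in OM by 3.94 and higher in IM than in cortex by 3.89 (exact permutation test, adjusted p = 0.0119 each). OM and cortex differed by -0.05 (exact test, adjusted p = 0.794). Markers of other structures rose with Sgk1 into IM. All 6 principal cell markers, all 6 urothelial markers and all 5 thin limb markers were called higher in IM than in OM, and so were 5 of 6 endothelial markers, where 66.4% of all genes were. After scaling 5 of the 6 principal cell markers were called higher, since Hsd11b2 turned to -0.23, and the other 3 counts stayed at 6, 5 and 5. Endothelial markers summed to 1308 to 1748 TPM in IM, 306 to 377 TPM in OM and 170.0 to 195 TPM in cortex. Urothelial markers summed to 188 to 307 TPM in IM, 11.5 to 49.4 TPM in OM and 1.45 to 7.33 TPM in cortex. Thin limb markers summed to 4794 to 8161 TPM in IM, 423 to 681 TPM in OM and 77.2 to 133 TPM in cortex. The part of each cell type in the level of Sgk1 was not tested.

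Prss8 encodes prostasin, a membrane-anchored protease that activates ENaC through the gamma subunit. It measured 231, 176, 202, 146 and 219 TPM in IM libraries 1 to 5, 424, 405, 453, 395 and 390 TPM in OM, and 448, 390, 448, 397 and 390 TPM in cortex. The highest IM library stood well below the lowest library elsewhere, and OM and cortex covered the same range. Prss8 fell in IM against OM by 1.10 ± 0.10 (log2; limma, adjusted p = 5.75e-08) and in IM against cortex by 1.10 ± 0.10 (adjusted p = 3.88e-08), and by 1.64 and 1.80 after scaling. OM minus cortex was 0.00 ± 0.10 (limma, adjusted p = 0.981). Per gamma transcript, Prss8 was highest in OM. The geometric mean of Prss8 over Scnn1g, both as TPM + 1, was 8.39 in IM, 16.8 in OM and 11.1 in cortex. The log2 differences were 0.60 for OM minus cortex and -1.002 for IM minus OM (exact permutation test, adjusted p = 0.0119 each), and -0.40 for IM minus cortex (adjusted p = 0.0741), which was -0.48 (adjusted p = 0.0423) without IM library 5. Exons of Prss8 overlap Kat8 on the opposite strand, so their reads cannot be told apart without a known strand setting.

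Within a zone the genes varied together in part. In cortex, Scnn1b, Scnn1g and Hsd11b2 had the same order of libraries, from library 2 at the top through 4, 5 and 3 to library 1. In IM the same 3 genes were highest in library 4 and next in library 1, while Sgk1 and Tsc22d3 were highest in libraries 2 and 3. Prss8 was lowest in IM library 4. That library also had the highest sum of principal cell markers, 13495 TPM. Over all 15 libraries Scnn1b and Scnn1g correlated at r = 0.948 on the log2 scale, given as a description, and Scnn1a correlated with Scnn1b at 0.34. These values mix the difference between zones with that between libraries.

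Genes with the most similar pattern over the 15 libraries were taken by Pearson r on log2(TPM + 1), a description that reflects mostly the zone differences. For Scnn1b they were Rhcg at 0.964, Scnn1g at 0.948 and Gstt1 at 0.946, and for Scnn1g Atp6v0d2 at 0.966, Tmem52 at 0.964 and Letmd1 at 0.958. Rhcg, an ammonia transporter, and Atp6v0d2, a proton pump subunit, are known from the connecting tubule and collecting duct. For Scnn1a they were the mitochondrial genes Nnt at 0.970, Atp5a1 at 0.959 and Idh3b at 0.957. For Sgk1 they were Ccdc127 at 0.996, Armcx1 at 0.995 and Alcam at 0.994. For Tsc22d3 they were Dvl1 at 0.995, Yap1 at 0.994 and Klhl12 at 0.994. For Prss8 they were Mlxipl at 0.994, Pde9a at 0.991 and Glb1l at 0.991. For Nr3c2 they were Zfp618 at 0.987, Tbc1d22a at 0.978 and Dnmt3a at 0.977, and for Nedd4l Kiz at 0.960, Fgf9 at 0.951 and Fndc9 at 0.949. Hsd11b2 had the loosest matches, with Pmm2 at 0.921, Fastk at 0.908 and Slc4a3 at 0.898.

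The wider pathway was read from 7 lists, and each count is to be read beside the shares of all genes. On the TPM scale 66.4% were higher and 17.2% lower in IM than in OM. For IM minus cortex these shares were 70.2% and 16.0%, and for OM minus cortex 28.3% and 6.30%. After scaling they were 37.9% and 36.5% for IM minus OM and 40.1% and 38.5% for IM minus cortex. For OM minus cortex the scaled shares were 16.5% and 17.0%. The median differences for IM minus OM were 0.43 for the steroid receptor list, 0.09 for the kinases, -0.05 for ubiquitin control, 0.85 for the proteases and inhibitors and -0.10 for the pump and potassium channels (log2), beside 0.51 for all tested genes. Of 10 genes around the steroid receptors, 1 was called higher and 2 lower in OM than in cortex, 7 higher and 1 lower in IM than in OM, and 8 higher and 2 lower in IM than in cortex. After scaling these were 1 and 3, 2 and 4, and 2 and 5. The chaperone Hsp90aa1, which holds the receptors ready for hormone, averaged 566 ± 43.9 TPM in IM, 261 ± 14.0 TPM in OM and 233 ± 25.5 TPM in cortex, and was higher in IM on either scale. Its relative Hsp90ab1 was called higher in IM than in OM by 0.26 (log2; limma, adjusted p = 0.000207) but stood at -0.28 after scaling. The co-chaperone Fkbp4 averaged 246 ± 13.1 TPM in IM, 251 ± 9.79 TPM in OM and 265 ± 11.1 TPM in cortex. Fkbp5, a co-chaperone that lowers receptor affinity for hormone, is itself induced by glucocorticoid. It fell inward on either scale, to 28.2 ± 6.05 TPM in IM against 47.3 ± 3.65 TPM in OM and 60.5 ± 5.15 TPM in cortex.

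Hsd11b1, which regenerates active glucocorticoid, was higher in both medullary zones than in cortex on either scale. It averaged 294 ± 19.2 TPM in IM, 224 ± 46.4 TPM in OM and 122 ± 50.5 TPM in cortex, and the difference for OM minus cortex was 0.94 ± 0.23 (log2; limma, adjusted p = 0.00593). The geometric mean of Hsd11b2 over Hsd11b1, both as TPM + 1, was 0.679 in IM, 0.734 in OM and 1.65 in cortex. Its log2 difference was -1.17 for OM minus cortex (exact permutation test, adjusted p = 0.022), -1.28 for IM minus cortex (adjusted p = 0.0119) and -0.11 for IM minus OM (adjusted p = 0.588).

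Of the corticosteroid-responsive genes other than Sgk1 and Tsc22d3, some were called higher and others lower in IM. Of 10 such genes, 6 were called higher and 3 lower in IM than in OM, 7 higher and 3 lower in IM than in cortex, and 2 higher and 1 lower in OM than in cortex. After scaling these counts were 6 and 4, 5 and 4, and 1 and 2. On the TPM scale 66.4% of all genes were higher and 17.2% lower in IM than in OM. In IM against cortex 70.2% and 16.0% were. The median difference for IM minus OM was 1.12 (log2), beside 0.51 for all tested genes. Fkbp5, the deubiquitinase Usp2 and the transcription factor Klf9 were the 3 called lower in IM on the TPM scale. Usp2 averaged 35.9 ± 5.64 TPM in IM, 75.9 ± 8.81 TPM in OM and 68.8 ± 5.39 TPM in cortex, and the difference for IM minus OM was -1.06 ± 0.10 (log2; limma, adjusted p = 1.1e-07). Klf9 averaged 47.1 ± 9.50 TPM in IM, 71.5 ± 13.3 TPM in OM and 73.8 ± 6.77 TPM in cortex. Ndrg2, a corticosteroid-induced gene, averaged 121 ± 27.2 TPM in IM, 114 ± 3.65 TPM in OM and 98.0 ± 12.4 TPM in cortex. Its difference for IM minus cortex of 0.28 (log2; limma, adjusted p = 0.0426) turned to -0.41 after scaling, and it did not pass the test without filtering, in the 2 zones alone, with voom or on leaving out any of 11 of the 15 libraries in turn. The 6 called higher in IM than in OM on either scale were Dusp1, Ddit4, Nfkbia, Cnksr3, the clock gene Per1 and the transcription factor Zbtb16. All 6 were named after their values were seen. The differences were 1.34 for Dusp1, 1.74 for Ddit4, 1.72 for Nfkbia and 0.89 for Cnksr3 (log2). After scaling they were 0.81, 1.20, 1.18 and 0.38. Per1 averaged 34.5 ± 7.77 TPM in IM, 12.8 ± 2.58 TPM in OM and 10.5 ± 1.80 TPM in cortex. Zbtb16 averaged 16.5 ± 10.6 TPM in IM, 2.98 ± 1.47 TPM in OM and 1.91 ± 1.03 TPM in cortex.

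Around the kinase, 4 of 8 genes were called higher and 4 lower in IM against OM, and likewise in IM against cortex. In OM against cortex 1 was called higher and 1 lower. After scaling 2 were higher and 4 lower in IM against either zone, and 1 higher and 3 lower in OM against cortex. Among all genes 66.4% were higher and 17.2% lower in IM than in OM on the TPM scale, and 37.9% and 36.5% after scaling. Sgk2, a relative of Sgk1, fell to 46.7 ± 8.30 TPM in IM against 116 ± 10.04 TPM in OM and 138 ± 15.3 TPM in cortex. The difference for IM minus OM was -1.31 ± 0.11 (log2; limma, adjusted p = 1.73e-08), the opposite of Sgk1. SGK1 is activated by the kinase complex mTORC2. Its catalytic subunit Mtor averaged 56.6 ± 10.7 TPM in IM, 108 ± 11.8 TPM in OM and 72.0 ± 9.30 TPM in cortex. The mTORC2 subunit Rictor and the shared subunit Mlst8, chosen after their values were seen, rose in IM on either scale. Rictor averaged 12.6 ± 0.548 TPM in IM against 6.01 ± 0.877 TPM in OM. Mlst8 averaged 28.1 ± 2.74 TPM in IM against 10.05 ± 0.902 TPM in OM. The mTORC2 subunit Mapkap1 was called higher in IM than in OM by 0.45 (log2; limma, adjusted p = 3.44e-05) but stood at -0.0862 after scaling. Of the same list, Pdpk1 was called higher there by 0.69 (limma, adjusted p = 1.69e-06), but not after scaling (0.18, adjusted p = 0.0544). Wnk1, a kinase of the distal tubule, averaged 38.8 ± 2.74 TPM in IM, 47.2 ± 7.90 TPM in OM and 76.0 ± 9.12 TPM in cortex.

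Of 9 genes of ubiquitin control, 3 were called higher and 4 lower in IM than in OM, and 4 higher and 3 lower in IM than in cortex. After scaling 0 were higher and 8 were lower in IM than in OM, and 1 was higher and 8 lower in IM than in cortex. In OM against cortex 3 were higher and 0 lower, and 1 and 1 after scaling. The shares of all genes in IM against OM were 66.4% higher and 17.2% lower, and 37.9% and 36.5% after scaling. Nedd4, the relative of Nedd4l, averaged 157 ± 10.6 TPM in IM, 99.1 ± 6.95 TPM in OM and 76.6 ± 1.97 TPM in cortex, with libraries that did not overlap. Its difference for IM minus cortex was 1.02 ± 0.06 (log2; limma, adjusted p = 9.39e-11), and 0.33 after scaling. The deubiquitinases Usp8 and Usp10 were lower in IM, at 62.6 ± 4.03 TPM in IM and 76.5 ± 8.71 TPM in OM for Usp8, and 40.9 ± 1.06 TPM in IM and 51.4 ± 5.34 TPM in OM for Usp10. The adaptor Ndfip1, which recruits ligases of the Nedd4 family, averaged 322 ± 21.8 TPM in IM, 357 ± 21.8 TPM in OM and 349 ± 18.0 TPM in cortex. The 14-3-3 genes Ywhab and Ywhae, whose proteins bind phosphorylated NEDD4-2, were called higher in IM than in OM, at 0.45 and 0.19 (log2; limma, adjusted p = 3.74e-08 and 0.000954), but turned to -0.0945 and -0.353 after scaling.

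Among proteases and their inhibitors, 6 of 8 were called higher and 1 lower in IM than in OM, 7 higher and 1 lower in IM than in cortex, and 5 higher and 1 lower in OM than in cortex. After scaling these were 5 and 3, 4 and 2, and 4 and 2. Of all genes 66.4% were higher and 17.2% lower in IM than in OM on the TPM scale. Against cortex the shares were 70.2% and 16.0% for IM and 28.3% and 6.30% for OM. The inhibitor Spint2 (HAI-2) averaged 1095 ± 64.3 TPM in IM, 425 ± 39.1 TPM in OM and 317 ± 16.8 TPM in cortex, and its difference for IM minus OM was 1.37 ± 0.07 (log2; limma, adjusted p = 4.11e-11). The protease St14 (matriptase), which acts with prostasin in epithelia and was chosen after its values were seen, averaged 185 ± 26.6 TPM in IM, 45.7 ± 2.83 TPM in OM and 24.6 ± 2.18 TPM in cortex. Its difference for IM minus OM was 1.98 ± 0.09 (log2; limma, adjusted p = 1.57e-11). Prss8 thus fell in IM where its inhibitor and its partner protease rose. Tissue kallikrein Klk1, made in the connecting tubule, was the gene of the list called lower on the TPM scale. It averaged 264 ± 50.9 TPM in IM, 2077 ± 456 TPM in OM and 4846 ± 484 TPM in cortex. The urokinase gene Plau was high in OM, at 629 ± 187 TPM in IM, 830 ± 74.5 TPM in OM and 413 ± 148 TPM in cortex. Its difference for OM minus cortex was 1.07 ± 0.22 (log2; limma, adjusted p = 0.00185), while IM minus cortex was 0.63 and turned to -0.0705 after scaling. For IM minus OM, Plau stood at -0.44 (limma, adjusted p = 0.0766) and was called lower after scaling, at -0.99 (adjusted p = 0.00123). Furin was called higher in IM than in OM by 0.19 (limma, adjusted p = 0.0481) but lower after scaling, at -0.35 (adjusted p = 0.00137). Klk1 has close relatives, and its reads may be shared with them.

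Of the 8 genes of the sodium pump, which carries sodium out of the cell, and of partner potassium channels, 2 were called higher and 3 lower in IM than in OM, 2 higher and 2 lower in IM than in cortex, and 3 higher and 1 lower in OM than in cortex. After scaling these were 1 and 7, 1 and 5, and 2 and 1. For all genes the shares in IM against OM were 66.4% higher and 17.2% lower, and 37.9% and 36.5% after scaling. The pump's beta subunit gene Atp1b1 was called higher in IM than in OM by 0.21 and higher in IM than in cortex by 0.51 (log2; limma, adjusted p = 0.019 and 1.51e-05), and these turned to -0.33 and -0.19 after scaling. The gamma subunit gene Fxyd2 averaged 4477 ± 594 TPM in IM, 4571 ± 266 TPM in OM and 4793 ± 298 TPM in cortex. No difference passed the test on the TPM scale, and after scaling it was called lower in IM, at -0.58 for IM minus OM and -0.81 for IM minus cortex (log2). The pump regulator Fxyd4 (CHIF), a corticosteroid-induced gene of the collecting duct that is also in the principal cell list, averaged 1798 ± 374 TPM in IM, 219 ± 79.2 TPM in OM and 80.0 ± 7.98 TPM in cortex. The basolateral potassium channel gene Kcnj16 fell inward, to 158 ± 10.1 TPM in IM against 259 ± 26.8 TPM in OM and 319.7 ± 26.2 TPM in cortex. Of 5 acid-sensing relatives of ENaC only Asic1 was abundant enough to test. It averaged 7.10 ± 0.930 TPM in IM, 3.84 ± 0.443 TPM in OM and 3.41 ± 0.232 TPM in cortex and was called higher in IM than in OM, by 0.74 ± 0.09 (log2; limma, adjusted p = 8.59e-07), a call lost under quantile normalization (0.0916, adjusted p = 0.325). Asic2 averaged 0.354 ± 0.113 TPM in IM and Asic3 0.835 ± 0.348 TPM in IM.

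**Figure D4:**
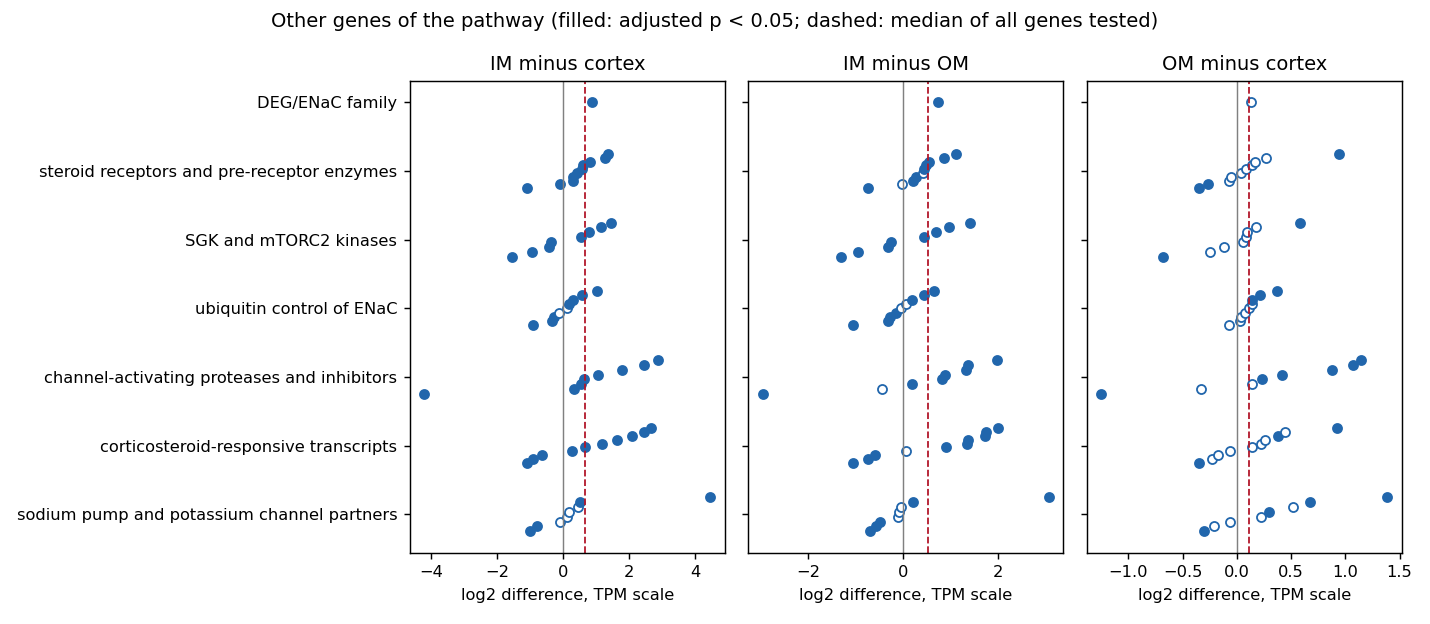
Differences in log2(TPM + 1) for IM minus cortex, IM minus OM and OM minus cortex of the tested genes of each pathway list on the TPM scale, with 1 point a gene, filled where called, and the median of all tested genes as a dashed line. Corticosteroid-responsive genes and proteases lie on both sides of the dashed line in IM.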

How the data were processed

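Total RNA of 15 microdissected kidney samples, 5 each of IM, OM and cortex, was sequenced in paired-end Illumina runs, per the labels' protocols. A single table of TPM values was deposited by the authors, and each of its library columns adds up to 1000000. STAR and the build mm9 are named without versions, per the submitters' processing notes. How reads were counted, on which annotation and with which strand setting is not given in the sources used here. Overlapping, antisense or near-identical genes may therefore share reads.

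The table holds no counts. The steps between TPM values gave back whole reads (tolerance 0.001) for 19997 genes, which is 100% of those measured in 2 or more libraries. These reads served for depth and for voom as an alternative. By library, 1 TPM was worth 20.6 to 32.8 reads at the median gene.

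The 15052 genes that reached 1 TPM in 5 or more libraries were tested as log2(TPM + 1). limma 3.58.1 in R 4.3.3 with statmod 1.5.0 fitted all 15 libraries with zone as the factor, with trend and robust moderation. Tests were two-sided, with Benjamini-Hochberg adjustment over all tested genes, and the fit was tested on simulated data. Ratios between genes were taken within a library and tested by exact permutation. Sequences are from RefSeq on GRCm38.p6, and protein sequences were not used here. Exon overlaps are from GENCODE M21. These builds differ from mm9, so the sequences are not those the reads were aligned to.

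The 9 genes, the pathway lists and the cell type marker lists were chosen with earlier results of these data known. All 9 are reported. Of each pathway list, the rule names the up to 3 most abundant genes and those called against the majority of their list, and for each of the 9 the 3 genes most alike over the libraries, predicted genes left out. Per1, Zbtb16, Rictor, Mlst8 and St14 were chosen after their values were seen, as were Mapkap1, Pdpk1, Furin, Dusp1, Ddit4, Nfkbia and Cnksr3. Fkbp5 and Usp2 stand in more than 1 list. A single gene of the pathway lists enters their counts and is otherwise not reported here. Alternatives were another pseudocount, no filter, 2 other scalings, each library left out, 3 libraries left out together, the 2 zones alone, plain moderation, voom and a replicate block, and, chosen after seeing the data, ratios without a pseudocount.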

Additional observations from a re-analysis of the deposited data

Results flagged for a closer look

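Of the 27 groups formed by 9 genes in 3 zones, 1 held a library far from the other 4. Sgk1 reached 20.6 TPM in cortex library 4, against 13.1 to 14.0 TPM in the other 4 cortex libraries. Chance gives such a gap in about 1 in 20 groups.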

How the results depend on the processing

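Scaling mattered most. Under median-ratio scaling IM minus OM turned to -0.52 for Scnn1b, -0.23 for Hsd11b2, -0.39 for Nedd4l, -0.0446 for Nr3c1, -0.28 for Hsp90ab1, -0.0945 for Ywhab, -0.35 for Ywhae, -0.48 for Ndrg2 and -0.33 for Atp1b1. IM minus cortex turned to -0.61 for Hsd11b2, -0.13 for Nedd4l, -0.25 for Nr3c1, -0.40 for Hsp90ab1, -0.11 for Ywhab, -0.40 for Ywhae, -0.0705 for Plau, -0.41 for Ndrg2 and -0.19 for Atp1b1, and OM minus cortex to -0.0190 for Ywhab. Under quantile normalization IM minus OM turned to -0.54 for Scnn1b, -0.41 for Nedd4l and -0.0733 for Nr3c1, IM minus cortex to -0.13 for Nedd4l, -0.25 for Nr3c1, -0.0454 for Asic1 and 0.37 for Fxyd2, and OM minus cortex to 0.30 for Fxyd2.

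Of the 9 genes, 5 were called lower in IM than in OM under either scaling, against 2 on TPM, and 2 were called higher in IM than in cortex under quantile normalization, against 4. There Nr3c2 lost its calls (IM minus OM 0.28, limma adjusted p = 0.0734; IM minus cortex 0.12, adjusted p = 0.436). Of the pathway genes, 11 were called lower in OM than in cortex under median-ratio scaling and 8 under quantile normalization, against 5 on TPM. In IM against OM median-ratio scaling gave 17 higher and 28 lower, against 29 and 14, and in IM against cortex 16 and 26, against 33 and 13. The cause was not tested.

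Leaving out 1 library at a time gave 1 to 2 genes of the 9 higher and 2 lower in OM than in cortex, 3 to 4 higher and 2 lower in IM than in OM, and 4 higher and 4 lower in IM than in cortex. The 2 came without cortex library 4, where Sgk1 joined Nedd4l. For the pathway genes the ranges were 15 to 20 and 4 to 6, 26 to 29 and 12 to 15, and 32 to 34 and 12 to 14. Called ratios numbered 8 to 10, 10, and 8 to 9. Hsd11b2 lost its IM minus OM call without IM library 1 (0.25, limma adjusted p = 0.0521) and with voom (0.15, adjusted p = 0.237), and gained one in OM minus cortex with the 2 zones alone (adjusted p = 0.0148) and without IM library 4, OM library 1 and cortex library 1 together (-0.29, adjusted p = 0.0323). Scnn1g gained one in IM minus OM with voom (-0.28, adjusted p = 0.026).

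Replicate numbers were not taken to pair the libraries, since not every same-numbered pair correlated above 0.1. Deviations of same-numbered libraries correlated at -0.03 to 0.26, with 8 of 15 pairs above 0.1. Each library was also compared with the 5 libraries of another zone, and its own number correlated best in 20 of 30 comparisons. That is a hint of shared numbers from the data and not from the labels. The main tests treat the libraries as unpaired and do not take it up. With a replicate block Nedd4l was called in IM minus OM (0.13, limma adjusted p = 0.0306), as were Plau in IM minus OM (-0.44, adjusted p = 0.014) and Per1 (0.26, adjusted p = 0.0237) and Zbtb16 (0.45, adjusted p = 0.0189) in OM minus cortex, and Ndrg2 lost its IM minus cortex call (adjusted p = 0.0804). The sign-flip test with the block called 0 ratios in each comparison, against 8, 10 and 8, since its smallest p is 0.0625.

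Depth limits the 9 genes little, as the lowest rested on 154 reads. The table carries no absolute scale, so a change in total RNA per cell cannot be seen.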

Other observations

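Hsd11b1 split the cortex libraries. The log2 ratio of Hsd11b2 to Hsd11b1 was 0.11 and -0.08 in cortex libraries 1 and 3, and 1.504, 0.99 and 1.08 in cortex libraries 2, 4 and 5. The IM libraries lay between -0.85 and -0.18 and the OM libraries between -0.73 and 0.04. Hsd11b1 itself ranged over 273 to 325 TPM in IM, 150 to 273 TPM in OM and 71.0 to 190 TPM in cortex.

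Variation between libraries of a zone differed among the 9 genes. In IM the lowest and highest libraries were 24.2 and 47.1 TPM for Scnn1b, while they were 30.0 and 39.6 TPM for Nedd4l. Of the adipocyte markers, Adipoq ranged over 1.19 to 26.9 TPM in IM, 0 to 2.20 TPM in OM and 0.973 to 18.3 TPM in cortex.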
